A study of Mus musculus with 20 samples.

Results

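Interferon-stimulated genes are the genes that cells switch on after interferons bind their receptors, and 39 of them, outside the guanylate-binding protein and immunity-related GTPase families, were followed in mouse brain. They were chosen by gene symbol, with earlier results of these data known, and all 39 were present among the 55487 symbols of the prefrontal cortex table and the 57180 gene identifiers of the hippocampus table. Mx1, a dynamin-like GTPase, is one of them. Type I and type II interferons act through the Janus kinases. Type I interferons drive a complex that includes Stat2 and Irf9 to a DNA element called the interferon-stimulated response element, and genes of the type II response carry the gamma-activated site. The products bind viral RNA, alter nucleotide pools, coat membranes or tag proteins with the ubiquitin-like Isg15, and Irf7 and Usp18 feed back on the pathway. Microglia, astrocytes, endothelium and neurons can all make this response.

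Poly(A)-selected RNA was sequenced from wild-type mice of the inbred strain C57/BL6, aged 2 to 6 months. Prefrontal cortex was dissected from males 24 h after intraperitoneal injection of 5 mg/kg lipopolysaccharide (LPS, the bacterial endotoxin that drives inflammation throughout the body; 4 libraries) or of 0.9% saline (4 libraries). Hippocampus was dissected 24 h after 0.2 mg/kg nicotine, which opens nicotinic acetylcholine receptors (6 libraries), or after 0.9% saline (6 libraries), with the sex and the route not given in the labels. Totals were 39871000 to 42924749 counts with LPS and 36371084 to 46106526 with saline in cortex, and 53145736 to 62982229 with nicotine and 51969343 to 68196280 with saline in hippocampus. For 4 of the 8 cortex records, title and treatment field gave the other group than the name of the count column, and libraries were grouped by column name. Lcn2, a gene strongly induced by systemic inflammation, lay at 254 to 366 CPM (normalised read counts, scaled so that libraries of unequal depth can be compared) in the libraries whose columns are named LPS, against 0.676 to 13.5 CPM in those named saline. The titles call the libraries biological replicates. The samples were whole tissue, in which fewer cells of a type and less RNA per cell cannot be told apart.

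LPS raised most of these genes in prefrontal cortex. Of the 39, 38 had enough counts to test, 36 rose and 0 fell (edgeR quasi-likelihood test, Benjamini-Hochberg adjusted p under 0.05 over 17760 genes; 0 were lower at an unadjusted p under 0.05 and 0 fell by DESeq2). Over all genes tested, 21.5% rose and 19.7% fell. The rise was over 2-fold for 29 of the genes, against 5.65% of all genes tested. For 36, every LPS library was above every saline library, which held for 19.2% of all genes. The median log2 change was 1.50 for the 38 genes and 0.01 over all genes. The genes that did not pass were Oas1a and Ifi27l2a, and Irf8 was listed at 0 counts in all 8 libraries. In whole-library terms, the 39 genes together held 586 to 668 CPM with LPS and 204 to 230 CPM with saline.

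**Figure D1:**
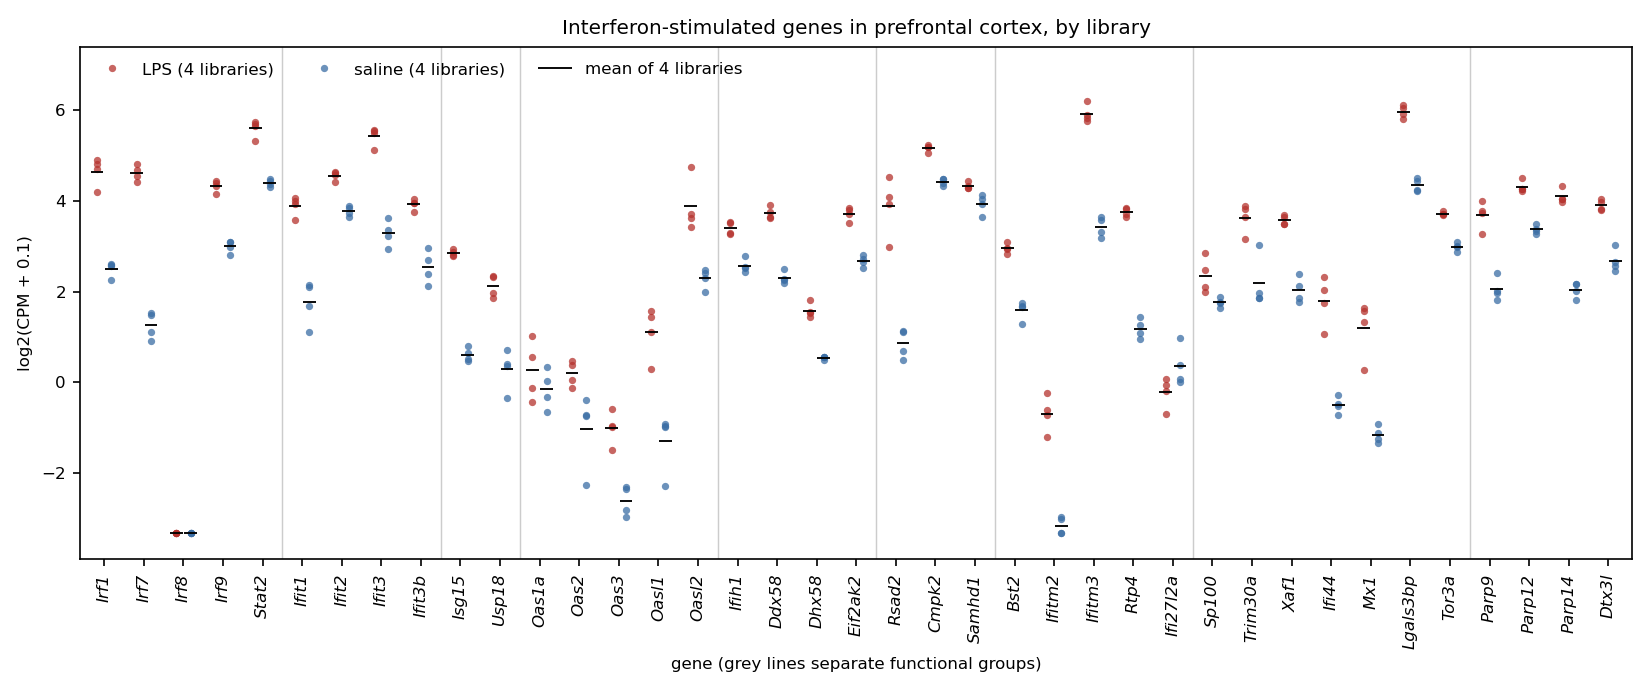
Level of each gene in each prefrontal cortex library on a log2(CPM + 0.1) scale, with LPS on the left and saline on the right of each gene, points for libraries and black bars for means of 4 libraries. LPS and saline points separate for 36 genes, overlap for Oas1a and Ifi27l2a, and lie at the lower limit for Irf8.

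All 4 tested transcription factors of the response rose. Irf7, the factor that amplifies interferon production, had 21.3, 28.3, 25.7 and 23.3 CPM in the LPS libraries (replicates 1 to 4), against 2.05, 2.72, 1.77 and 2.78 CPM in the saline libraries. The lowest LPS library was far above the highest saline library, and the 10.6-fold rise (log2 change 3.41, SE 0.16, edgeR adjusted p = 2.78e-07) was the largest of the 39 among genes with more than a few saline counts. Irf1, a factor of the interferon-gamma response, had 18.2, 25.9, 29.9 and 27.9 CPM with LPS, against 6.05, 5.82, 4.69 and 5.89 CPM with saline (4.54-fold, SE 0.16 on the log2 scale, edgeR adjusted p = 3.22e-06). LPS replicate 1 was the lowest of its group for Irf1, while the saline libraries lay close together. Irf9, the DNA-binding subunit of the type I complex, had 17.8, 21.8, 19.9 and 20.9 CPM with LPS and 6.92, 8.51, 8.49 and 7.86 CPM with saline. Its partner Stat2 had 39.8, 52.0, 53.5 and 50.5 CPM with LPS and 19.6, 20.8, 21.5 and 22.4 CPM with saline. Both rose by a little over 2-fold without overlap, Irf9 by 2.53-fold (edgeR adjusted p = 8.69e-06) and Stat2 by 2.32-fold (edgeR adjusted p = 1.03e-05).

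Irf8, a factor of microglia and other myeloid cells (chr8:120736358-120756694 in mm10, plus strand), was listed at 0 in all 8 cortex libraries. In hippocampus it was measured, at 4.71 to 6.22 CPM with nicotine (median 5.36) and 4.56 to 7.85 CPM with saline (median 5.03). Of 14494 genes at 1 CPM or more in hippocampus, 55 were listed at 0 in every cortex library. On chromosome 8, from position 119992438 onwards, lay 97 of the 14494 genes, of which 37 were at 0 and the others had counts in cortex. The 37 at 0 include Cox4i1, a respiratory chain subunit, and the ribosomal protein gene Rpl13, which nearly every cell uses. The 0 of Irf8 in cortex therefore gives no level for this gene, and no change is reported for it.

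The Ifit genes form a cluster on chromosome 19 and code for proteins that bind foreign RNA. Ifit1 (chr19:34640871-34650009) had 11.9, 16.7, 15.8 and 15.2 CPM with LPS, against 3.13, 4.36, 2.05 and 4.20 CPM with saline, a 4.35-fold rise (edgeR adjusted p = 3.76e-05). Ifit3 (chr19:34583531-34588731) had 34.7, 45.0, 46.3 and 47.4 CPM with LPS and 9.31, 12.2, 7.62 and 10.2 CPM with saline, a 4.41-fold rise (edgeR adjusted p = 2.49e-06). Their groups did not overlap, and LPS replicate 1 was lowest of its group for both. Ifit3b (chr19:34607970-34613401) had 13.4, 16.5, 15.5 and 15.4 CPM with LPS, against 5.15, 7.75, 4.29 and 6.43 CPM with saline (2.58-fold, edgeR adjusted p = 0.000129). Of the 50-base stretches of Ifit3 transcripts, 51.2% also occur in Ifit3b, so the split of reads between these copies is uncertain. Ifit2, the remaining member of the cluster here, rose by 1.72-fold (edgeR adjusted p = 0.000129), with 21.2 to 24.8 CPM with LPS and 12.5 to 14.8 CPM with saline.

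Isg15, the ubiquitin-like modifier (chr4:156199424-156200818), had 6.93, 6.82, 7.55 and 7.29 CPM with LPS, against 1.33, 1.64, 1.46 and 1.28 CPM with saline. The spread within each group was small beside the 5.00-fold rise (log2 change 2.32, SE 0.15, edgeR adjusted p = 1.44e-06). Usp18, the protease that removes Isg15 from proteins and dampens the type I receptor, had 3.52, 3.82, 4.89 and 5.01 CPM with LPS and 0.692, 1.18, 1.54 and 1.23 CPM with saline, a 3.68-fold rise (edgeR adjusted p = 0.000167).

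The bases around the start of several of these genes were read because the genes rose together. RefSeq start windows of 300 bases (250 before and 50 after the start, GRCm38.p6) were given for 30 of the 39 genes, and both strands were searched for the core of the interferon-stimulated response element, GAAANNGAAA (TTTCNNTTTC on the other strand), and for the gamma-activated site, TTCNNNGAA, which reads the same on both strands. The 250 bases before the start are shown 5′ to 3′ on the strand of the gene for 6 genes, chosen as the modifier Isg15, the Ifit3 copies, a gene with overlapping motifs, a gene with a gamma-activated site only and the gene with the largest well-measured rise. Capitals mark matches to either motif.
Isg15, chr4:156200819-156201068, minus strand: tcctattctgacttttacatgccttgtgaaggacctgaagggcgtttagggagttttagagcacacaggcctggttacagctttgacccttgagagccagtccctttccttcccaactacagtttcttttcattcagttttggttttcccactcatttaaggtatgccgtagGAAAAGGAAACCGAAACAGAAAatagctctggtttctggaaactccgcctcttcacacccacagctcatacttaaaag
Ifit3, chr19:34583279-34583528, plus strand: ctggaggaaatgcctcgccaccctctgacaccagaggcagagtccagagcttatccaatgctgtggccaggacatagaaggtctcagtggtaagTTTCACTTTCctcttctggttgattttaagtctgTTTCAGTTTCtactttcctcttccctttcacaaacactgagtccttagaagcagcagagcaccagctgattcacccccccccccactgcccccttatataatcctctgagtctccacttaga
Ifit3b, chr19:34607707-34607956, plus strand: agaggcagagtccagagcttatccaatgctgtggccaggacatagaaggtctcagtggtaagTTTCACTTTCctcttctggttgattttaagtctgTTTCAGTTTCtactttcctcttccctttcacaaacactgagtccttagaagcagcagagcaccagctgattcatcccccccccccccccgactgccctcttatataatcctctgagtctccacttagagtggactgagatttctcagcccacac
Bst2, chr8:71537473-71537722, minus strand: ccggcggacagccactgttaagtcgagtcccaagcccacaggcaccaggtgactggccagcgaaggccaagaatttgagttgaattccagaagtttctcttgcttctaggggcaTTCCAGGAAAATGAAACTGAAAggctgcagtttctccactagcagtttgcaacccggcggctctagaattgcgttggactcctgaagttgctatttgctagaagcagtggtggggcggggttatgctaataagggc
Irf1, chr11:53769764-53770013, plus strand: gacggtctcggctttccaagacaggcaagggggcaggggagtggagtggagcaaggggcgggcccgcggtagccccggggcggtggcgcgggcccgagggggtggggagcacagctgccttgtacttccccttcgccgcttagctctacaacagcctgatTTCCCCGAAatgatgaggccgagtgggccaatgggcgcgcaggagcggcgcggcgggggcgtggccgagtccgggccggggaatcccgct
Irf7, chr7:141266425-141266674, minus strand: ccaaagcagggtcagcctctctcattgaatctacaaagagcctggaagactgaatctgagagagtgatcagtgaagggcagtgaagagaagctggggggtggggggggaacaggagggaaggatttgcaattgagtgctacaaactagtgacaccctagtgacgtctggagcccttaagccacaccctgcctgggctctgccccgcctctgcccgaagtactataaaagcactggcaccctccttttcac

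In Isg15 the capitals are 3 overlapping matches to the response element core, the first of them 78 bases before the start. Ifit3 and Ifit3b share 2 matches with the same letters, beginning 156 and 122 bases before the start in Ifit3 and 188 and 154 bases before it in Ifit3b. In Bst2 a gamma-activated site and 2 response element cores overlap in 1 run. Irf1 has a gamma-activated site alone, 90 bases before the start, and the Irf7 window holds neither set of letters. The response element core occurred in 15 of the 30 genes (50%), against 3.99% of 27025 genes with a window, and the gamma-activated site in 8 of the 30 (26.7%), against 9.55%. The motifs overlapped in 2 of the 36 windows of these genes, against 0.0731% of all 32851 windows. As a description only, the median log2 change with LPS was 1.44 in the 15 genes with the core (0.53 to 5.16) and 1.45 in the 14 tested genes without it (0.38 to 3.41).

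The oligoadenylate synthetase genes, whose products activate RNase L or bind RNA, differed in level and in spread. Oasl2 had 27.0, 13.1, 12.2 and 10.7 CPM with LPS, against 4.84, 5.22, 3.86 and 5.51 CPM with saline, a 3.25-fold rise (edgeR adjusted p = 0.000563). LPS replicate 1 stood alone at the top for Oasl2, and the other LPS libraries lay close together above the saline libraries. Oas1a had 1.94, 1.38, 0.646 and 0.818 CPM with LPS and 0.538, 0.915, 0.697 and 1.16 CPM with saline. Its groups overlapped (log2 change 0.53, SE 0.38, edgeR adjusted p = 0.276), and 57.6% of its 50-base stretches also occur in Oas1g. Oasl1 was at 1.13, 2.06, 2.90 and 2.61 CPM with LPS and 0.410, 0.404, 0.106 and 0.427 CPM with saline, a 6.49-fold rise (edgeR adjusted p = 0.00048). Oas3 rose from a very low level, 0.256 to 0.563 CPM with LPS against 0.0269 to 0.103 CPM with saline (5.95-fold, edgeR adjusted p = 0.00157). Oas2, at 0.818 to 1.29 CPM with LPS and 0.108 to 0.667 CPM with saline, passed narrowly (2.37-fold, edgeR adjusted p = 0.0305). Its call was lost without LPS replicate 1, 2 or 3 (edgeR adjusted p = 0.052, 0.0557 and 0.0734) and without saline replicate 3 or 4 (edgeR adjusted p = 0.0532 and 0.0553).

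The sensors of foreign RNA rose by about 2-fold with little spread. Ddx58, which codes for RIG-I, had 13.4, 14.9, 12.3 and 12.5 CPM with LPS, against 4.74, 4.50, 4.65 and 5.58 CPM with saline (2.72-fold, edgeR adjusted p = 1.08e-05). Ifih1, which codes for MDA5, had 11.3, 11.6, 9.69 and 9.54 CPM with LPS and 5.69, 6.81, 5.30 and 5.72 CPM with saline (1.79-fold, edgeR adjusted p = 0.000481). Eif2ak2, which codes for the RNA-dependent kinase PKR that halts translation, had 14.4, 13.1, 13.8 and 11.4 CPM with LPS and 6.23, 6.87, 5.64 and 6.48 CPM with saline (2.09-fold, edgeR adjusted p = 6.92e-05). No group overlapped for these 3 genes. Dhx58, the regulator of both helicases, rose by 2.13-fold (edgeR adjusted p = 0.000704).

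Genes of antiviral nucleotide metabolism differed widely in size of change. Rsad2, which codes for viperin, an enzyme that makes a chain-terminating nucleotide, had 7.84, 16.9, 23.1 and 15.2 CPM with LPS, against 1.51, 2.07, 1.31 and 2.11 CPM with saline. The rise was 9.00-fold (log2 change 3.17, SE 0.30, edgeR adjusted p = 2.25e-05), and LPS replicate 1 lay well below the other LPS libraries. Cmpk2, a mitochondrial nucleotide kinase that lies beside Rsad2 on chromosome 12, was expressed far more in saline tissue and rose less, with 33.5 to 37.5 CPM with LPS against 20.2 to 22.3 CPM with saline (1.68-fold, edgeR adjusted p = 5.45e-05). Samhd1, which degrades deoxynucleotides, had 21.6, 19.5, 19.5 and 19.9 CPM with LPS and 15.2, 12.5, 17.5 and 16.3 CPM with saline. This was the smallest change that passed, at 1.31-fold (log2 change 0.38, SE 0.11, edgeR adjusted p = 0.0171).

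Membrane-associated effectors included some of the clearest changes. Ifitm3, which blocks virus entry at endosomes, had 59.3, 74.1, 54.7 and 56.8 CPM with LPS, against 11.8, 8.97, 9.84 and 12.4 CPM with saline, and the groups lay far apart (5.69-fold, edgeR adjusted p = 3.55e-07). Rtp4, a chaperone of G-protein-coupled receptors that is induced by interferon, had 12.4, 14.3, 13.0 and 14.1 CPM with LPS and 2.03, 2.29, 1.84 and 2.61 CPM with saline (6.14-fold, edgeR adjusted p = 4.09e-07). Bst2, which codes for tetherin and holds virions at the cell surface, had 7.55, 8.42, 6.98 and 7.72 CPM with LPS and 3.10, 3.07, 3.25 and 2.35 CPM with saline (2.60-fold, edgeR adjusted p = 5.17e-05). All 3 were without overlap between groups. Ifitm2 was barely detected, with 23, 32, 13 and 20 counts in the LPS libraries and 0, 1, 0 and 1 counts in the saline libraries. The summed 88 counts with LPS against 2 with saline give a ratio of 44.9 (95% interval from counting error only, 12.1 to 377), and 40.9% of its exon bases are shared with an overlapping gene on the same strand, so its counts are uncertain. Ifi27l2a went against the rest, with 0.863, 0.774, 0.517 and 0.946 CPM with LPS and 1.20, 1.86, 0.908 and 0.950 CPM with saline. Its groups overlapped and the difference did not pass (log2 change -0.66, SE 0.31, edgeR adjusted p = 0.108).

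Mx1 codes for a GTPase that blocks viral ribonucleoproteins, and in this strain its gene is known to carry a deletion that leaves no functional protein. It had 1.10, 2.86, 3.02 and 2.43 CPM with LPS, against 0.359, 0.323, 0.296 and 0.427 CPM with saline (6.66-fold, edgeR adjusted p = 0.000131), and LPS replicate 1 lay well below the other LPS libraries. Lgals3bp, a secreted glycoprotein, was among the most abundant of the genes, with 66.6, 69.1, 60.1 and 56.1 CPM with LPS and 21.6, 22.6, 18.9 and 18.5 CPM with saline (3.09-fold, edgeR adjusted p = 8.66e-07). Ifi44 rose by 5.81-fold, Xaf1 (a pro-apoptotic factor) by 2.95-fold, Trim30a (a ubiquitin ligase family member) by 2.66-fold and Tor3a (a torsin ATPase) by 1.67-fold, all with edgeR adjusted p of 0.00169 or less. Trim30a was at 8.90 to 14.8 CPM with LPS, against 8.05 CPM in saline replicate 2, which stood apart, and 3.53 to 3.85 CPM in the other saline libraries. Sp100, a scaffold of nuclear bodies, had 7.10, 5.44, 4.21 and 3.86 CPM with LPS, against 3.26, 3.31, 3.02 and 3.61 CPM with saline (1.56-fold, edgeR adjusted p = 0.0222). The lowest LPS library was just above the highest saline library, and the call was lost without LPS replicate 2 (edgeR adjusted p = 0.0614), saline replicate 1 (0.0528) or saline replicate 3 (0.0593).

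All 4 genes of the ADP-ribosylation group rose. Parp14, which attaches single ADP-ribose units to proteins, had 15.6, 20.2, 16.5 and 16.4 CPM with LPS, against 3.44, 4.42, 3.97 and 4.37 CPM with saline, a 4.24-fold rise (edgeR adjusted p = 1.24e-06). Parp9 and its partner, the ubiquitin ligase Dtx3l, rose by 3.19-fold and 2.35-fold (edgeR adjusted p = 5.18e-05 and 7.91e-05). They lie head to head on opposite strands of chromosome 16 and their exons overlap, so with the strand setting not given a small share of their reads cannot be told apart. Parp12 rose by 1.93-fold (edgeR adjusted p = 5.26e-05).

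**Figure D2:**
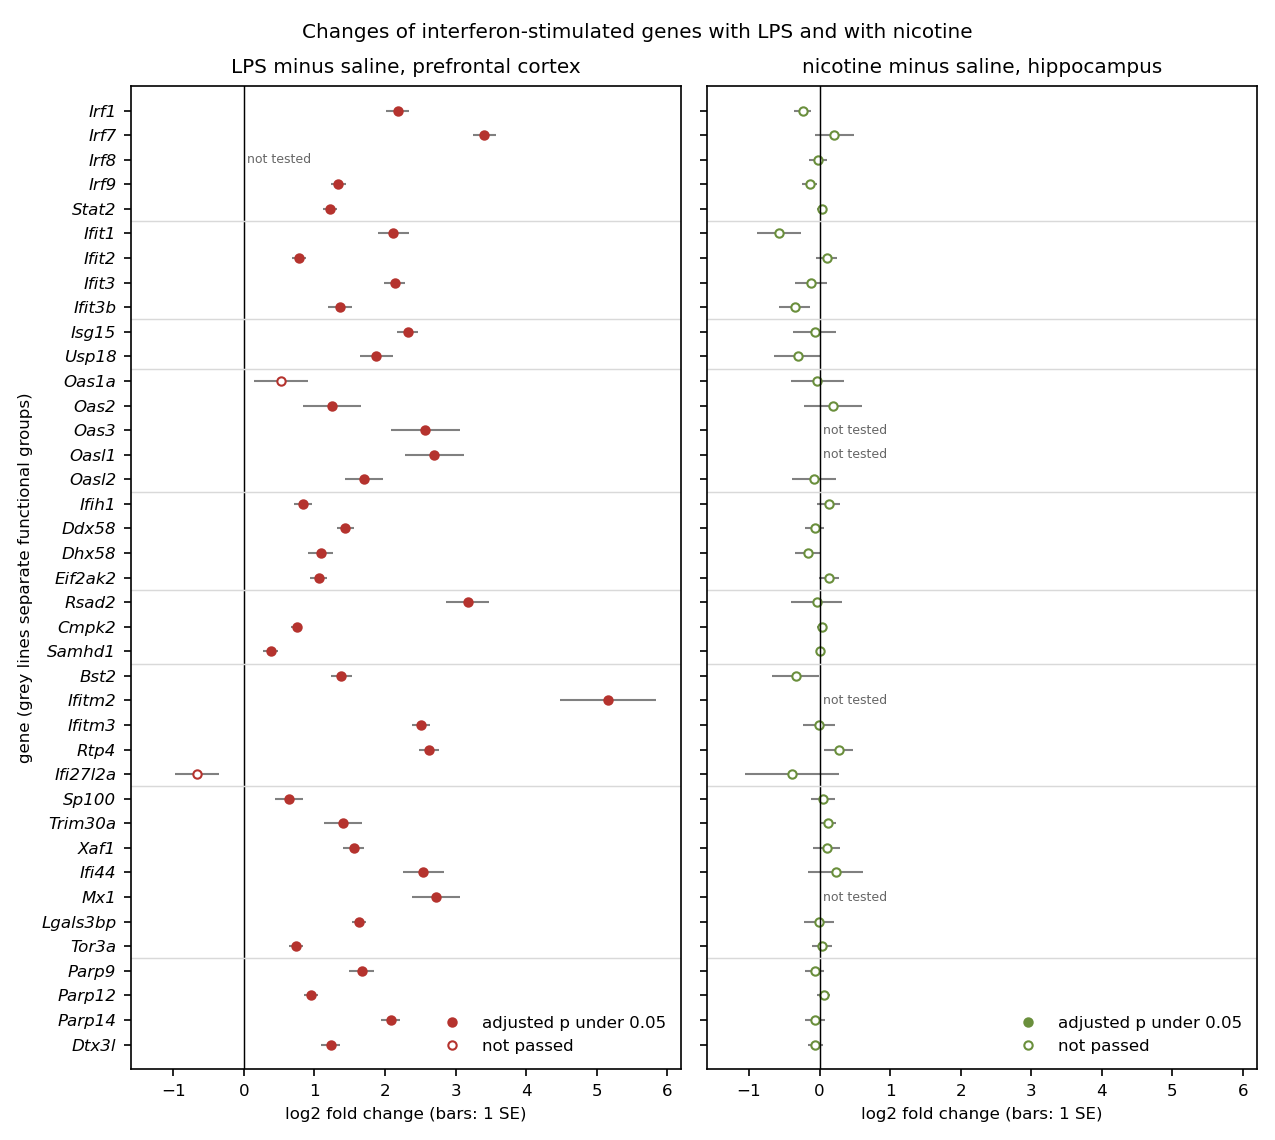
Log2 fold change of each gene with LPS in prefrontal cortex (left) and with nicotine in hippocampus (right), with bars of 1 SE, filled points for adjusted p under 0.05 and open points for the rest. With LPS 36 points are filled and all lie to the right of 0, while with nicotine none is filled and the values lie between -0.57 and 0.27.

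The 4 LPS libraries did not differ in 1 common direction. LPS replicate 1 was the lowest of its group for 16 of the 38 genes tested, among them Irf1, Irf7, Irf9, Stat2, Rsad2, Mx1 and all 4 Ifit genes. The same library was the highest for 8 others, namely Oas1a, Oas2, Oasl2, Eif2ak2, Cmpk2, Samhd1, Sp100 and Trim30a. Over all genes tested it was the lowest for 35.6% and the highest for 33.4%. Among genes that rose over 2-fold it was the lowest for 51.3% and the highest for 20%. LPS replicate 2 was the highest for 18 of the 38, against 16.5% of all genes and 29.5% of those that rose over 2-fold. LPS replicate 1 also had the highest sums of microglial (516 CPM), endothelial (290 CPM) and peripheral leukocyte (28.3 CPM) markers of its group. The same held for astrocyte (5691 CPM), choroid plexus (217 CPM) and cortical (1074 CPM) markers. In that library Enpp2 alone gave 201 CPM of the choroid plexus sum, and Cd4 gave 19.1 CPM of the leukocyte sum. Ly6c1 gave 74.1 CPM of its endothelial sum, against 28.5 to 39.2 CPM in the other LPS libraries. Slc1a2 gave 3326 CPM of its astrocyte sum, against 2314 to 3091 CPM. Some markers were instead lowest in that library. They were Sall1, Siglech and Fcrls of microglia, Cdh5, Flt1 and Itm2a of endothelium, and Gfap, Aqp4 and Gja1 of astrocytes. The choroid plexus gene Ttr was at 0.336 CPM there, within 0.207 to 1.48 CPM over the LPS libraries. The part of these marker sums in the pattern was not tested.

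**Figure D3:**
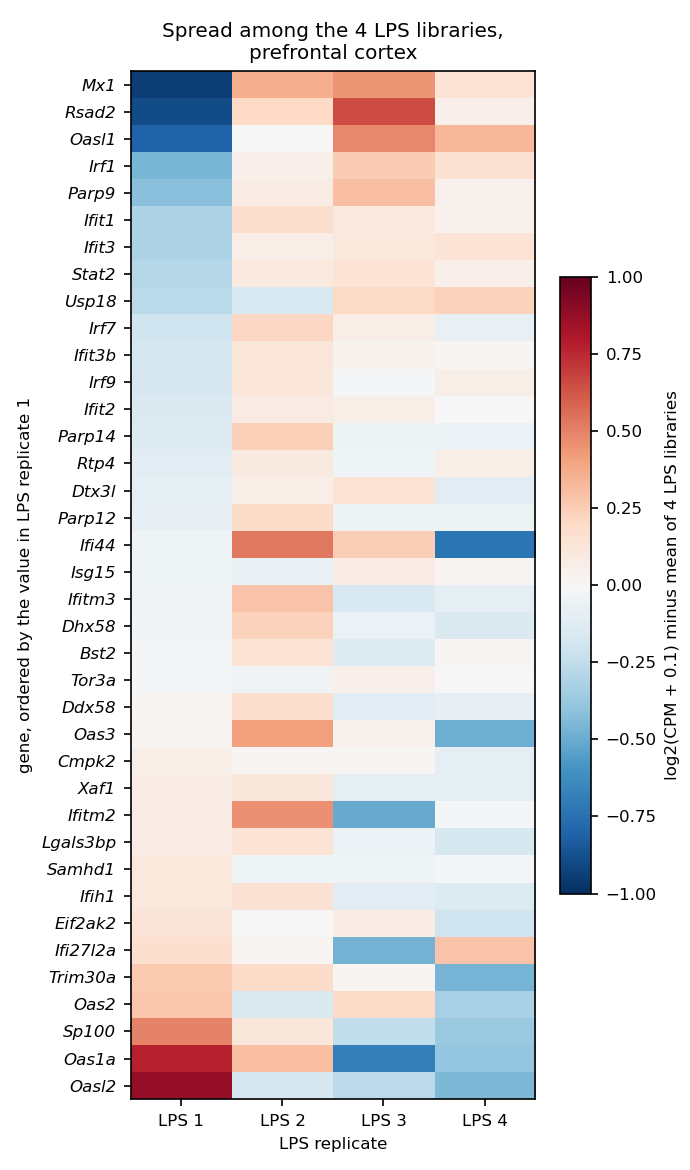
Deviation of each LPS library from the mean of the 4 LPS libraries, as log2(CPM + 0.1), with genes ordered from the lowest to the highest value in LPS replicate 1. Mx1, Rsad2 and Oasl1 are lowest in LPS replicate 1, and Oasl2, Oas1a and Sp100 are highest in it.

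Marker genes of the cells that could carry these transcripts were summed in the same libraries. The 12 microglial markers gave 419 to 516 CPM with LPS and 533 to 568 CPM with saline. Of the 11 tested, 2 rose (C1qa and C1qb) and 6 fell, and Itgam was listed at 0 in every library. Endothelial markers gave 242 to 290 CPM with LPS and 282 to 317 CPM with saline (3 of 12 rose and 5 fell), and astrocyte markers 4763 to 5691 CPM with LPS and 4949 to 5237 CPM with saline (3 of 10 rose and 4 fell). Neuronal markers gave 10660 to 11903 CPM with LPS and 9928 to 11204 CPM with saline (1 of 9 tested rose and 2 fell). Oligodendrocyte markers gave 2563 to 3464 CPM with LPS and 2880 to 3843 CPM with saline (0 of 8 rose and 4 fell). The 15 peripheral leukocyte markers summed to 8.16 to 28.3 CPM with LPS and 3.13 to 14.3 CPM with saline. Cd4, at 0.997 to 19.1 CPM with LPS and 1.26 to 9.12 CPM with saline, was the highest of them in every library except LPS replicate 4, where S100a8 was at 2.63 CPM. Only 4 of the 15 had enough counts to test, and S100a8 and Ngp rose. Ly6g, a defining neutrophil marker, was at 0 counts in all saline libraries and in 3 of the 4 LPS libraries. Striatal markers, a sign of how the dissection was cut, ranged over 466 to 1978 CPM with LPS and 364 to 1546 CPM with saline. The striatal sum and Cd4 were both lowest in LPS replicate 4 and saline replicate 1, and both were the highest saline value in saline replicate 3. With LPS, Cd4 was highest in replicate 1 and the striatal sum in replicate 3. A link between them was not tested. With the mean log2 level of the striatal markers as a covariate, 36 of the 39 genes rose. The part of the other marker lists was not tested.

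Genes of the pathway outside the 39 were less uniform. Of 81 listed, 67 were tested, 42 rose, 6 fell and 19 did not pass, with a median log2 change of 0.61. The interferon genes themselves were at or near 0, with 9 of 11 (Ifnb1 and Ifng among them) at 0 counts in all cortex libraries and the highest, Ifna2, at 7 counts in all, 6 of them in a single saline library. A count of 0 allows up to 3 counts, or 0.0634 to 0.0808 CPM per cortex library, and only 24 h was sampled. Receptors and kinases moved in both directions, and all that passed except Ifnlr1 changed by less than 2-fold. Ifnlr1, a chain of the receptor for type III interferons, rose by 2.46-fold at a very low level, with 0.288, 0.375, 0.750 and 0.460 CPM with LPS, against 0.256, 0.135, 0.127 and 0.237 CPM with saline (log2 change 1.30, SE 0.43, edgeR adjusted p = 0.0283). It lost its call without LPS replicate 3 or 4 (edgeR adjusted p = 0.113 and 0.0544), without saline replicate 2 or 3 (0.0694 and 0.0809) and with no filter on low counts (0.0545). Ifnar2, a chain of the type I receptor, rose (log2 change 0.60, SE 0.15, edgeR adjusted p = 0.00788), as did Ifngr1 (0.30, SE 0.09, edgeR adjusted p = 0.0191) and Jak1 (0.26, SE 0.07, edgeR adjusted p = 0.0116), and Ifnar1 did not pass (0.18, SE 0.07, edgeR adjusted p = 0.0643). Ifngr2 (-0.36), Jak2 (-0.22) and Tyk2 (-0.43) fell, with edgeR adjusted p of 0.0378, 0.042 and 0.0283. The calls of Ifngr2 and Tyk2 held in the fits without LPS replicate 1 or saline replicate 3, and that of Jak2 in the fits without saline replicate 1 or 4. Without any other library the edgeR adjusted p was 0.0692 to 0.101 for Ifngr2, 0.0564 to 0.0741 for Tyk2 and 0.0542 to 0.0982 for Jak2. Ifngr1 lost its call without LPS replicate 2, saline replicate 1 or saline replicate 4 (edgeR adjusted p = 0.0604 to 0.0663) and Jak1 without LPS replicate 2 (0.0519), while Ifnar1 passed without LPS replicate 1 (0.0459). The number of pathway genes that fell was 10 without LPS replicate 1 and 3 without LPS replicate 2, 3 or 4.

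Irf3, the constitutive factor that starts interferon transcription, fell, with 12.3, 6.05, 5.01 and 5.57 CPM with LPS and 15.1, 13.8, 17.0 and 13.7 CPM with saline (log2 change -1.04, SE 0.24, edgeR adjusted p = 0.00562). The LPS libraries of Irf3 were all below the saline libraries, with replicate 1 closest to them. Among feedback and sensing genes, Socs1 (0.79), Irf5 (0.56), Tlr3 (0.61) and Cgas (1.23) rose on the log2 scale, with edgeR adjusted p of 0.0237 or less. Socs1 lost its call without LPS replicate 4 (edgeR adjusted p = 0.0873), saline replicate 1 (0.0515) or saline replicate 3 (0.062). With only the 4 libraries whose labels agree, none of these 4 genes passed (edgeR adjusted p = 0.0735 for Socs1, 0.217 for Irf5, 0.0552 for Tlr3 and 0.0514 for Cgas). Zbp1, a sensor of Z-form nucleic acid, rose most of those named, by 3.64 on the log2 scale (SE 0.36, edgeR adjusted p = 2.81e-05), and Mx2, the neighbour of Mx1, rose by 1.52 (edgeR adjusted p = 0.000972). Tlr4, the LPS receptor, was at 0.15 (edgeR adjusted p = 0.496), Irf2 at 0.20, Mavs at -0.62 and Sting1 at -0.33, none of which passed. Mavs was close to the threshold and fell by DESeq2 (adjusted p = 0.0258), by limma-voom (0.0385), with no filter on low counts (edgeR adjusted p = 0.0284), with the striatal covariate (0.0429) and in the 4 libraries whose labels agree (0.0271), where Sting1 also fell (0.03). Without LPS replicate 1, Mavs (-0.90, edgeR adjusted p = 0.00225) and Sting1 (-0.60, edgeR adjusted p = 0.0245) fell, and Mavs also fell without saline replicate 2 (-0.74, edgeR adjusted p = 0.0416). Tdrd7 (-0.32) and Ifi27 (-0.43), both listed as interferon-induced, fell, with edgeR adjusted p of 0.0165 and 0.00417, and Tdrd7 did not pass in the 4 libraries whose labels agree (0.0578).

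**Figure D4:**
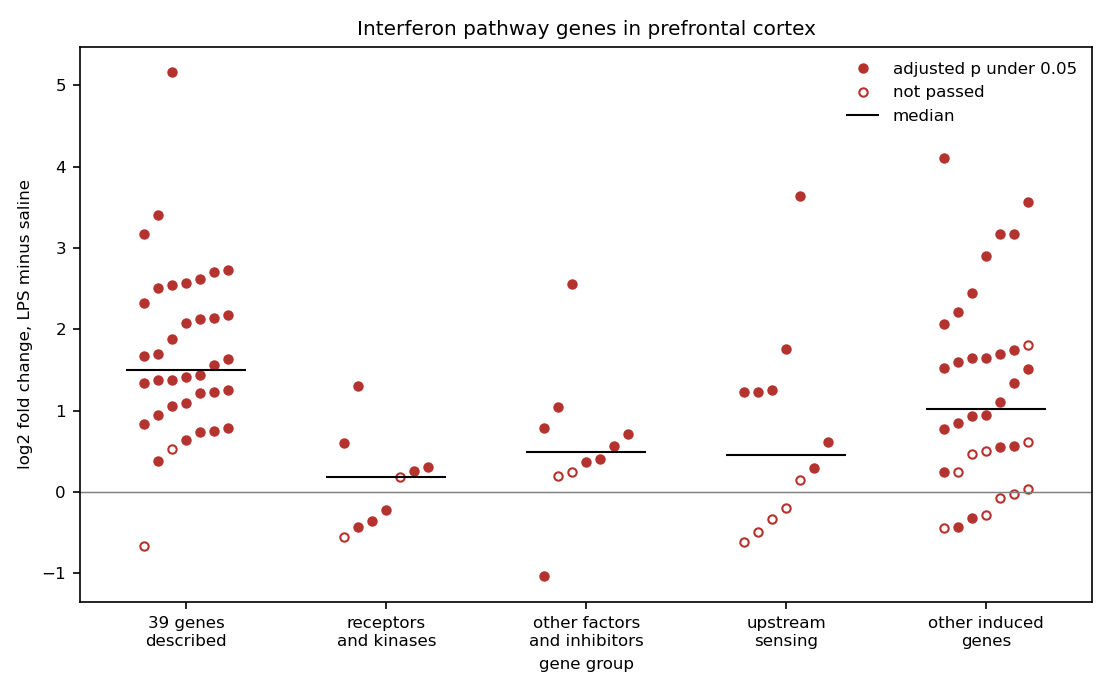
Log2 fold change with LPS in prefrontal cortex for the 38 tested of the 39 genes described and for 4 groups of other pathway genes, with filled points for adjusted p under 0.05, open points for the rest and bars for group medians. The described genes have a median of 1.50, against 0.18 for receptors and kinases.

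Nicotine did not change any of these genes detectably in hippocampus. Of the 39, 35 had enough counts to test (Oas3, Oasl1, Ifitm2 and Mx1 did not), and 0 passed at an edgeR adjusted p under 0.05. Over all 18873 genes tested 0% passed, 0 of the 35 were at an unadjusted p under 0.05, and 8.36% of all genes were. DESeq2 called 15 genes of the whole table and 0 of the 39, with 1 of these at an unadjusted p under 0.05. The log2 changes were positive for 15 and negative for 20 genes, with a median of -0.02, against 0.00 over all genes. The smallest p values belonged to Irf1, with 4.41 to 5.44 CPM with nicotine (median 5.15) and 4.68 to 7.91 CPM with saline (median 5.76; log2 change -0.24, SE 0.12, edgeR adjusted p = 0.595), and to Ifit1 (log2 change -0.57, SE 0.31, edgeR adjusted p = 0.626). Ifit3b (-0.35), Rtp4 (0.27) and Irf9 (-0.14) followed, with edgeR adjusted p of 0.668, 0.718 and 0.741. The groups overlapped for all 5 genes.

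The sign of many of these values turned on a single saline library. Saline replicate 2 was the highest saline library for 33 of the 39 genes (84.6%), against 29.2% of all genes tested, and its level over the other saline libraries had a median log2 difference of 0.70 for the 39 genes and -0.01 over all genes. Ifit1 was at 1.48 to 2.20 CPM in the nicotine libraries, against 6.24 CPM in saline replicate 2 and 1.55 to 3.02 CPM in the other saline libraries. Ifit3 was at 3.71 to 6.74 CPM in the nicotine libraries, against 11.0 CPM in saline replicate 2 and 4.50 to 5.33 CPM in the other saline libraries. Together the 39 genes held 186 to 219 CPM in the nicotine libraries, 272 CPM in saline replicate 2 and 176 to 219 CPM in the other saline libraries. The excess was not shared by every gene: Stat2 (0.06), Cmpk2 (-0.07) and Samhd1 (-0.11) were near the other saline libraries on the log2 scale. Ifitm2, too low to test in hippocampus, was below them (-0.95). The same library had the highest saline sums of microglial (656 CPM), oligodendrocyte (7858 CPM), astrocyte (6390 CPM) and peripheral leukocyte (1.8 CPM) markers. Its sums were the lowest for neuronal (7377 CPM), endothelial (217 CPM), hippocampal (786 CPM), cortical (376 CPM) and striatal (205 CPM) markers. It held 1254 CPM of the choroid plexus gene Ttr, against 3680 CPM in saline replicate 5. The part of these in the result was not tested.

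Without saline replicate 2, 28 of the 35 genes were positive and 7 negative with nicotine. The median log2 change was 0.12, against 0.00 over all genes, and none passed (smallest edgeR adjusted p = 0.63). That library was left out because it was high for these same genes, so the upward shift follows from the choice. No lean with nicotine can be read from it. Rtp4 (0.46, unadjusted p = 0.0108 by edgeR) and Ifit2 (0.26, unadjusted p = 0.0314 by edgeR) were then under an unadjusted p of 0.05, and 7.6% of all genes were. Ifit1 was at -0.13 without this library, and Ifi27l2a, the most affected gene, at 0.62 without it and -0.39 with it. Without the 4 libraries above 1000 CPM of Ttr, 28 genes were positive and 7 negative, with a median of 0.17, against 0.01 over all genes. Those 4 include saline replicate 2, so this fit is not independent of the one before. With choroid plexus marker expression as a covariate and all libraries kept, 20 genes were positive and 15 negative, with a median of 0.02.

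**Figure D5:**
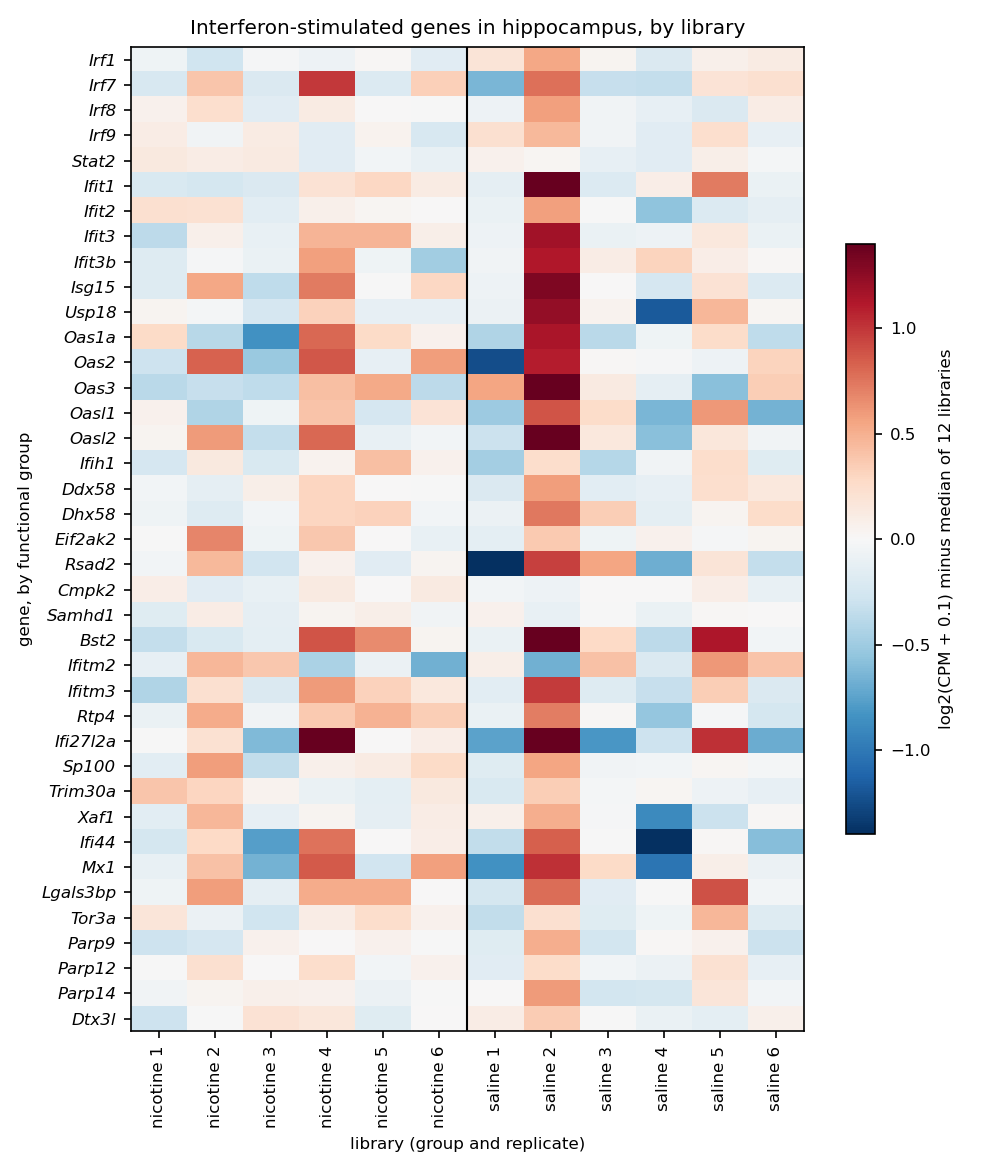
Level of each gene in each hippocampal library as log2(CPM + 0.1) minus the median of the 12 libraries, with nicotine on the left and saline on the right of the black line. Saline replicate 2 is the highest saline column for 33 of the 39 genes, and it is near 0 for Stat2, Cmpk2 and Samhd1.

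In the saline libraries these genes spanned a wide range of abundance, here given per kilobase of exon so that genes can be compared. The 2 tissues were normalised separately, so their values stand side by side without a test. Ifitm3 was the highest in both, at 15.9 CPM per kilobase in saline cortex (13.2 to 18.4) and 9.44 in saline hippocampus (6.71 to 16.8). Lgals3bp followed in both, at 7.17 CPM per kilobase in saline cortex (6.51 to 7.92) and 5.86 in saline hippocampus (4.06 to 8.96), and its range did not overlap that of Ifitm3 in cortex but did in hippocampus. Several genes with large changes with LPS were low in saline cortex, with Irf7 at 0.617, Rsad2 at 0.404, Oasl1 at 0.129 and Mx1 at 0.0928 CPM per kilobase. Among the 38 genes with counts in cortex only Oas3 and Ifitm2 were lower than Mx1. Level and change did not go together in every gene. Ifitm3 rose by 5.69-fold from the highest level. Sp100 (0.437) and Dhx58 (0.416) were low and rose by 1.56-fold and 2.13-fold. The saline level is also the base of each fold change, so they are not independent. Trim30a differed most in place, at 1.15 CPM per kilobase in saline cortex (0.858 to 1.96, rank 18) and 3.88 in saline hippocampus (3.33 to 4.91, rank 3) among the genes measured in both tissues. Across these 38 genes the Spearman correlation of the saline means of the tissues was 0.943, a description over genes that share the exon lengths used for both tissues.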

How the data were processed

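For each tissue the authors deposited 1 table of raw read counts by gene, not normalized. Libraries were made by poly(A) selection (Universal Plus mRNA-Seq with NuQuant) from TRIzol-extracted RNA, per the labels' protocols, and fastp, STAR, featureCounts, DESeq2 and build mm10 are named without versions in the submitters' processing notes. Neither the annotation nor the strand setting used for counting is stated (not given in the sources used here), so reads of overlapping or near-identical genes may be split between them. Hippocampal identifiers were named from GENCODE vM21 (51884 of 57180; the rest held 1.14% of counts). All count columns were matched to libraries.

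The tissues, each a batch of its own, were analysed separately using edgeR 4.0.16 under R 4.3.3 (TMM factors, filterByExpr, quasi-likelihood test, Benjamini-Hochberg adjustment over all genes tested, threshold 0.05). CPM are TMM-normalised. Groups were taken from the column names in cortex and from the titles in hippocampus; cortex replicates were numbered in record order within each group. The 39 genes, the gene lists and the rule for naming genes (all 39, the pathway genes listed by name and any that fell, and in hippocampus the 5 smallest p) were chosen with earlier results of these data known. Socs1 and other list members are named by that rule. Cox4i1, Rpl13, C1qa, C1qb, S100a8, Ngp, Cd4 and Ifnlr1 were named after their values were seen. So were the microglial, endothelial and astrocyte markers named for LPS replicate 1. One gene named by the rule was left out of the text. Alternatives were DESeq2 1.42.0, limma-voom (limma 3.58.1), RLE factors, other count filters, single libraries left out, a replicate block, grouping by title, the libraries with agreeing labels, and marker covariates. The steps were tested on simulated data. The reads carry no molecular identifiers, so floors (3 counts) and count intervals cover counting error only. The median SE of a log2 change over all genes was 0.14 in cortex and 0.10 in hippocampus. No 2 libraries of a group agreed within sampling noise (lowest chi-square per degree of freedom 11).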

Additional observations from a re-analysis of the deposited data

Results flagged for a closer look

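Samples that lay far from the rest of their group were found for 19 of 154 groups of values; chance alone flags about 1 in 20 such groups, and the genes are not independent. In cortex, LPS replicate 1 was far above the other LPS libraries for Oasl2, at 27.0 CPM where the others had 10.7 to 13.1 CPM, and LPS replicate 2 for Parp12, at 22.6 CPM where the others had 18.7 to 19.2 CPM. Saline replicate 2 was high for Trim30a, at 8.05 CPM beside 3.53 to 3.85 CPM. Saline replicate 3 was low for Oasl1, at 0.106 CPM beside 0.404 to 0.427 CPM, and for Dhx58, at 1.31 CPM beside 1.37 to 1.38 CPM.

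In hippocampus, nicotine replicate 4 was high for Ifit3b (4.53 CPM beside 2.12 to 2.99 CPM) and Ifi27l2a (1.11 CPM beside 0.159 to 0.361 CPM), and nicotine replicate 2 for Xaf1 (8.73 CPM beside 5.68 to 6.80 CPM). Saline replicate 2 accounted for the remaining 11, always as the highest library of its group. It held 7.85 CPM of Irf8, 6.24 CPM of Ifit1, 11.0 CPM of Ifit3, 6.67 CPM of Ifit3b and 1.67 CPM of Isg15. It also held 1.00 CPM of Oas1a, 7.18 CPM of Oasl2, 6.83 CPM of Eif2ak2, 3.43 CPM of Rtp4, 2.02 CPM of Ifi27l2a and 4.00 CPM of Sp100.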

How the results depend on the processing

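In cortex 36 genes rose with RLE factors, DESeq2, limma-voom, no count filter and the striatal covariate, 33 with a 1 CPM filter that tested fewer genes, 33 to 36 without single libraries and 32 with the 4 libraries whose labels agree, where Oas2, Sp100 and Trim30a did not pass, nor did Ifnlr1, Ifngr1, Jak1 and Jak2 of the pathway (edgeR adjusted p = 0.0673 to 0.204). With no count filter Ifngr1 (0.0609) and Jak2 (0.0561) did not pass, and by DESeq2 Ifnar1 did (0.0467). The replicate numbers in the titles, which the block used and which in cortex are not those given here, did not pair the libraries (correlations of -0.157 to -0.03 in cortex and -0.165 to 0.424 in hippocampus). With a replicate block 35 genes rose, Sp100 losing its call (0.61, edgeR adjusted p = 0.0575), as did Ifngr2 (0.0749), Jak2 (0.096), Tyk2 (0.0828) and Socs1 (0.0589), while Mavs fell (0.0211), and 0 genes of the table passed in hippocampus. Pathway genes that fell numbered 3 to 10 without single libraries.

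Grouping cortex by title mixed libraries of both column names, and then 0 genes of the table, 0 of the 39 and 0 pathway genes in either direction passed. Log2 changes there turned negative for Irf7 (-0.02), Ifit3b (-0.05), Oas1a (-0.52), Oas3 (-0.48), Oasl2 (-0.64), Ifih1 (-0.23), Ddx58 (-0.10), Dhx58 (-0.16), Eif2ak2 (-0.13), Cmpk2 (-0.06), Bst2 (-0.13), Ifitm2 (-0.65), Ifitm3 (-0.21), Sp100 (-0.38), Trim30a (-0.52), Xaf1 (-0.19), Ifi44 (-0.43), Lgals3bp (-0.23), Tor3a (-0.02), Parp12 (-0.04) and Parp14 (-0.09), and for Ifnar1 (-0.01), Ifngr1 (-0.06), Irf2 (-0.13), Irf5 (-0.19), Tlr3 (-0.02), Zbp1 (-0.65) and Cgas (-0.31); Jak2 turned positive (0.02).

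In hippocampus DESeq2 called 15 genes of the table and put 1 of the 39 at an unadjusted p under 0.05. Without the 4 libraries above 1000 CPM of Ttr, 1 gene of the table passed and Irf9 turned to 0.01. In that fit 2 of the 35 genes tested (Ifi27l2a and Trim30a) were under an unadjusted p of 0.05, against 13.8% of all genes. The cause was not tested. Without single libraries, 0 to 1 genes of the table passed and 0 to 2 of the 39 were under an unadjusted p of 0.05. Oas3, Oasl1, Mx1 and Ifitm2, with means of 0.0478 to 0.182 CPM with nicotine and 0.078 to 0.153 CPM with saline, were too low to test in hippocampus.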
